A study of Arabidopsis thaliana with 12 samples.

Results

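The genes described here are those of the plastid genome that serve the plastid's own gene expression, together with a few plastid genes of other function. Probe sets were taken where the annotation gave 1 plastid-encoded gene with a symbol that starts with rpo, rps, rpl or ycf, or that is matK, clpP, accD, cemA or ccsA. This gave 26 probe sets, each for a different gene, of 22810 on the array. They comprised 4 genes for RNA polymerase subunits, 8 for proteins of the small ribosomal subunit, 7 for proteins of the large subunit, the reading frames ycf3 and ycf4, and 5 others. Genes represented by probe sets shared between gene copies (rpl2, rpl23, rps7, rps12, ycf1 and ycf2, with 7 such probe sets) were left out.

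The cells were T87, a suspension culture of Arabidopsis thaliana of the Columbia background. They were grown in light on a medium with sucrose and an auxin. The culture age was 5 days and the treatment lasted 20 h. Ethanol, the solvent, was given to control cells. The ABA cells received 50 µM abscisic acid, the plant hormone of drought and dormancy. The DMTU cells received 5 mM dimethylthiourea, a scavenger of hydrogen peroxide, along with ethanol, and the ABA+DMTU cells received both compounds. Each of the 4 groups had 3 single-colour arrays. The study asked which genes ABA regulates in these cells and how the scavenger alters that regulation.

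The plastid keeps a small genome of bacterial ancestry. It is transcribed by a bacterial-type polymerase, whose core subunits are encoded in the plastid by rpoA, rpoB, rpoC1 and rpoC2, and by a phage-type polymerase encoded in the nucleus. Its mRNAs, many of them cut from long transcripts of several neighbouring genes, are translated on bacterial-type ribosomes whose proteins are encoded partly in the plastid and partly in the nucleus. All values below are the deposited log2 probe set values, on which a difference of 1 is a 2-fold change, and levels of different genes are not compared. In RNA from whole cultures, fewer plastids or plastid genomes and fewer transcripts per plastid cannot be told apart.

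All 26 members were measured above the lower quartile of every array, which lay between 3.84 and 3.98. Plastid genes varied between replicates more than most genes did: the median standard error of a change was 0.31 over the members and 0.15 over all probe sets. In the control group, array 1 was the highest of the 3 for 22 of 26 members (84.6%, against 38.8% of all probe sets). For 8 of them it lay over 1 log2 unit above the higher of the other arrays. ABA array 1 was the highest of its group for 17 members (65.4%, against 38.2%), and ABA+DMTU array 3 was the lowest of its group for 26 of 26 (29.7% of all probe sets). Calls of members that were lost or gained without 1 of these arrays are named below. Of the changes that kept their side of the threshold, some are also given without 1 of them. As a sign of RNA quality, ubiquitin signal at the 3' end exceeded that at the 5' end by 0.92 ± 0.07 log2 units without either compound, by 0.67 ± 0.04 with ABA, by 1.36 ± 0.07 with DMTU and by 1.10 ± 0.07 with both (SD, n = 3). For GAPDH, the same 4 values were 0.45 ± 0.10, 0.59 ± 0.07, 0.41 ± 0.19 and 0.64 ± 0.45. For actin they were 3.20 ± 0.46, 2.65 ± 0.09, 3.58 ± 0.12 and 3.31 ± 0.07. The ubiquitin and actin values were higher on average with DMTU and lower with ABA, those of GAPDH did not follow DMTU, and their part in the results below was not tested. None of the 5 listed nuclear markers of green cells is named here. Of 10 listed markers of other cell types 1 is named, the guard cell gene FMA, at 3.90 to 4.17 in all arrays.

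**Figure D1:**
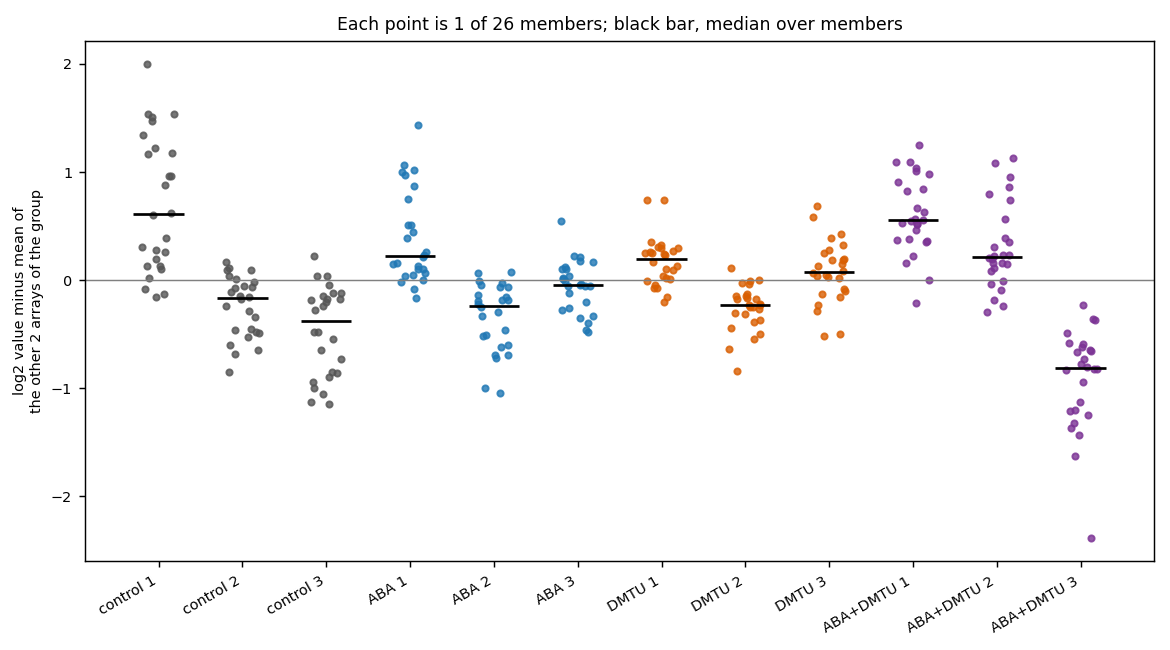
Each point is 1 of the 26 members in 1 array, drawn as its log2 value minus the mean of the other 2 arrays of its group, and black bars are medians over members. The medians were 0.61 in control array 1, 0.22 in ABA array 1 and -0.81 in ABA+DMTU array 3.

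**Figure D2:**
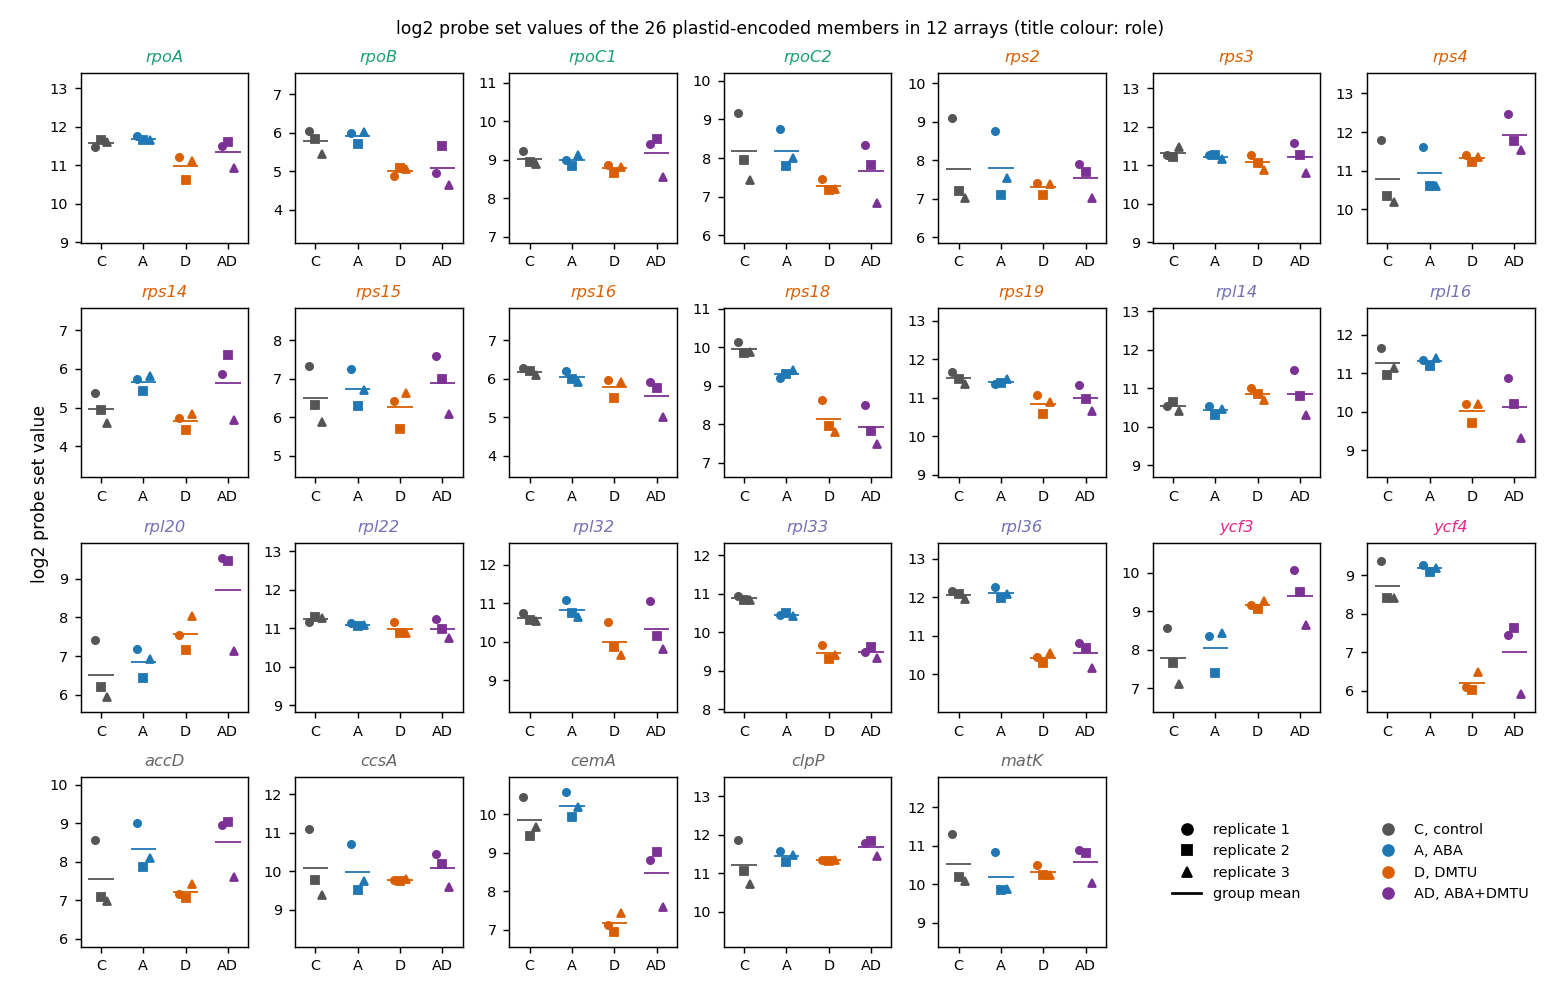
The log2 value of every member is drawn in each of the 12 arrays (C control, A ABA, D DMTU, AD ABA+DMTU; marker shape gives the replicate number and the line the group mean of 3), with axis ranges that differ between genes. The arrays with DMTU lie below those without it for ycf4, cemA, rpl36, rps18, rpl33, rpl16 and, narrowly, rps19, and above them for ycf3.

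DMTU alone was compared with the ethanol control to see what the scavenger did without hormone. Of the 26 members, 9 fell and 1 rose at an adjusted p under 0.05 (limma's moderated test, Benjamini-Hochberg over all 22746 probe sets), where 8.26% of all probe sets fell and 9.39% rose. The falls were 6.41-fold for cemA, 5.76-fold for ycf4, 3.54-fold for rps18, 3.09-fold for rpl36, 2.67-fold for rpl33 and 2.34-fold for rpl16, with smaller falls for rpoB, rps19 and rpoA. The gene that rose was ycf3, 2.61-fold. At least 2-fold, 6 members fell and 1 rose, where 2.63% and 2.29% of all probe sets did. The members' median change was -0.36, against 0.03 over all probe sets. The DMTU arrays lay wholly above the controls for 2 members and wholly below them for 12. Over all 22746 probe sets this held for 4837 and 3962, so that lack of overlap is common.

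DMTU was also added to cells that had ABA, and ABA+DMTU arrays were set against ABA arrays. Here 7 members fell and none rose, where 6.86% of all probe sets fell and 7.36% rose, and the median change was -0.18 against 0.05. The ABA+DMTU arrays lay wholly above the ABA arrays for 1 member and wholly below them for 9. Over all 22746 probe sets this held for 4487 and 3471. The 7 were cemA, ycf4, rpl36, rps18, rpl16, rpl33 and rpoB. All 7 had also fallen with DMTU alone, and they make up 77.8% of the 9 that fell there. The 2 comparisons share no array in their group means. Their calls are not independent, since the error of both came from the same fit over all arrays. In a fit on the compared groups only, rpl16 (adjusted p = 0.0793) and rpoB (0.0871) lost the call in cells with ABA. There cemA, ycf4, rpl36, rps18 and rpl33 kept it. Over all probe sets, the shared falls were 36.0% of those with DMTU alone and 43.3% of those with DMTU on top of ABA. Across the 26 members the changes in the 2 comparisons correlated with r = 0.96 (Spearman's rho 0.97), a description across genes of one genome measured on the same arrays. In the series, the samples with DMTU are numbered in a block apart from those without it. The labels do not say whether both kinds were handled together. A difference in handling cannot be told apart from DMTU in either comparison.

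**Figure D3:**
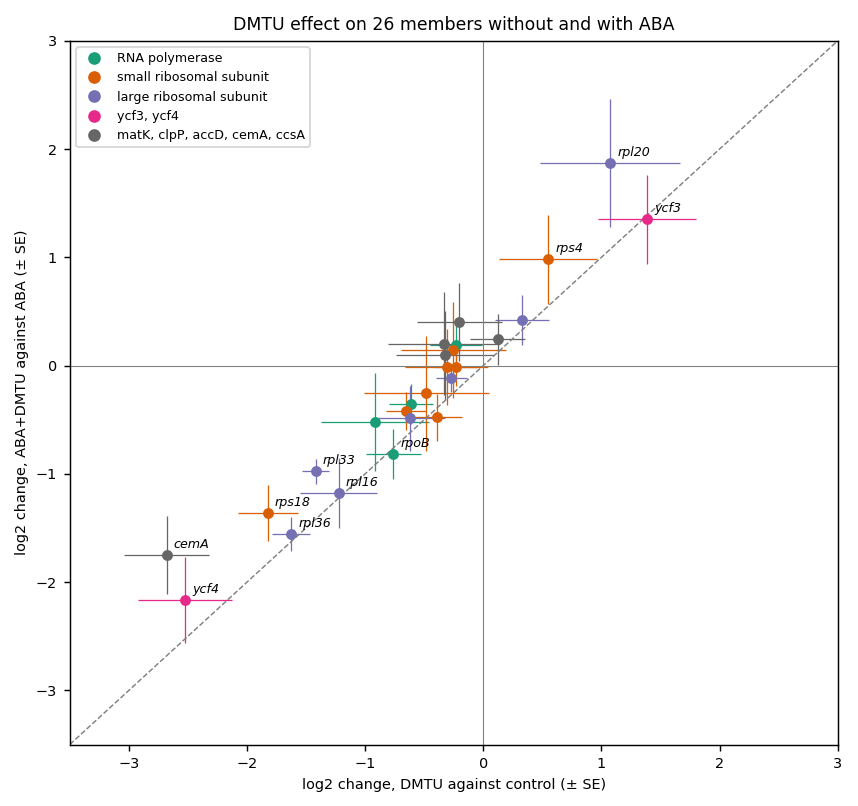
The log2 change of each of the 26 members with DMTU alone (x axis, DMTU against control) is plotted against its change with DMTU in the presence of ABA (y axis, ABA+DMTU against ABA), with standard errors from the fit over 12 arrays and a dashed line of equality. The points follow the line's direction, but 23 of 26 lie above it, where 11804 of all 22746 probe sets would. They run from ycf4 (-2.53 and -2.17) and cemA (-2.68 and -1.75) to ycf3 (1.38 and 1.35) and rpl20 (1.07 and 1.87, neither passing the test).

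Among the polymerase genes, rpoB and rpoA fell with DMTU. The gene rpoB, for the beta subunit of the catalytic core, stood at 6.04, 5.84 and 5.46 in control, 6.0, 5.72 and 6.02 in ABA, 4.88, 5.09 and 5.07 in DMTU, and 4.96, 5.67 and 4.66 in ABA+DMTU arrays. Every array with DMTU lay below every control array except ABA+DMTU array 2, and each DMTU group lay wholly below its counterpart. The changes were -0.76 ± 0.23 without ABA (SE, adjusted p = 0.0431) and -0.82 ± 0.23 with it (adjusted p = 0.0367). For rpoA, the alpha subunit on which the polymerase assembles, the values were 11.48, 11.66 and 11.61 in control, 11.76, 11.65 and 11.66 in ABA, 11.21, 10.61 and 11.10 in DMTU, and 11.49, 11.60 and 10.92 in ABA+DMTU arrays. The DMTU arrays lay below all controls, whereas ABA+DMTU arrays 1 and 2 reached the control range. The change of rpoA was -0.61 ± 0.19 without ABA (adjusted p = 0.0449) and -0.35 ± 0.19 with it (adjusted p = 0.248).

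Both polymerase calls rested on many arrays at once. With DMTU alone, rpoB lost its call without control 1 or 2, ABA 2 or 3, any DMTU array, or ABA+DMTU 1 (adjusted p = 0.0508 to 0.122), and rpoA without any control, ABA 2 or 3, or DMTU 2 or 3 (0.0597 to 0.160). With all arrays kept, rpoA also lost it with the replicate block (adjusted p = 0.0592), with quantile normalization (0.0665) and in a fit on the compared groups only (0.0609). In cells with ABA, rpoB lost it without control 2, any ABA array, any DMTU array, or ABA+DMTU 1 or 3 (0.0504 to 0.131).

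The other polymerase genes, rpoC1 and rpoC2, encode the parts of the catalytic core that correspond to the bacterial beta' subunit. In rpoC1 the values were 9.22, 8.94 and 8.88 in control, 8.98, 8.83 and 9.12 in ABA, 8.87, 8.66 and 8.81 in DMTU, and 9.42, 9.55 and 8.54 in ABA+DMTU arrays. In rpoC2 they were 9.17, 7.96 and 7.44 in control, 8.76, 7.78 and 8.00 in ABA, 7.45, 7.16 and 7.21 in DMTU, and 8.34, 7.82 and 6.83 in ABA+DMTU arrays. The groups overlapped for rpoC2, with control array 1 far above the rest, and the change with DMTU alone was -0.92 ± 0.45 (adjusted p = 0.197). Without control array 1 it was -0.43. For rpoC1, the DMTU arrays lay just below the controls, with a change of -0.23 ± 0.22 (adjusted p = 0.529). In cells with ABA its change was 0.19 ± 0.22 (adjusted p = 0.633), and 0.50 without ABA+DMTU array 3 (adjusted p = 0.0488). rpoB, rpoC1 and rpoC2 lie in a row on the plastid genome.

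Of the 15 ribosomal protein genes, 5 fell with DMTU alone (rps18, rps19, rpl16, rpl33 and rpl36) and none rose. The gene rpl33, for a protein of the large subunit, stood at 10.95, 10.84 and 10.85 in control, 10.45, 10.50 and 10.42 in ABA, 9.67, 9.31 and 9.41 in DMTU, and 9.48, 9.63 and 9.33 in ABA+DMTU arrays. No array with DMTU came near one without it, and replicates differed little. Its change was -1.42 ± 0.11 without ABA (adjusted p = 4.36e-05) and -0.98 ± 0.11 with it (adjusted p = 0.000301).

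Next to rpl33 lies rps18, for a small subunit protein. It stood at 10.14, 9.85 and 9.87 in control, 9.19, 9.30 and 9.42 in ABA, 8.63, 7.97 and 7.80 in DMTU, and 8.50, 7.82 and 7.50 in ABA+DMTU arrays. Again the arrays with DMTU lay wholly below those without it, array 1 being the highest in both DMTU groups. The change was -1.82 ± 0.25 without ABA (adjusted p = 0.000905) and -1.36 ± 0.25 with it (adjusted p = 0.0049). On the other side of rpl33 lies psaJ, for a small subunit of photosystem I and not itself a member, with changes of -1.75 ± 0.17 (adjusted p = 0.000126) and -1.30 ± 0.17 (adjusted p = 0.000613). The next ribosomal gene, rpl20, on the far side of rps18, gave no call. It stood at 7.40, 6.18 and 5.94 in control, 7.18, 6.43 and 6.91 in ABA, 7.55, 7.16 and 8.04 in DMTU, and 9.54, 9.47 and 7.13 in ABA+DMTU arrays. The ABA+DMTU arrays spanned over 2 log2 units, array 3 lying just below the lowest DMTU array. Its change was 1.07 ± 0.59 with DMTU alone (adjusted p = 0.249) and 1.87 ± 0.59 in cells with ABA (adjusted p = 0.0578). The latter passed the test without control 1 (adjusted p = 0.0334) and without ABA+DMTU 3 (adjusted p = 0.0035).

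The genes rpoA, rpl36, rpl14, rpl16, rps3, rpl22 and rps19 form a row known as the large ribosomal protein cluster, in which a bacterial order of genes is kept. With DMTU alone 4 of these 7 fell. The large subunit gene rpl36 stood at 12.15, 12.09 and 11.95 in control, 12.27, 11.99 and 12.08 in ABA, 10.46, 10.29 and 10.56 in DMTU, and 10.81, 10.69 and 10.17 in ABA+DMTU arrays. More than 1 log2 unit separated the arrays with and without DMTU. Its change was -1.63 ± 0.16 without ABA (adjusted p = 0.000128) and -1.56 ± 0.16 with it (adjusted p = 0.000123).

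For rpl16, a large subunit gene that carries an intron, the values were 11.66, 10.95 and 11.14 in control, 11.35, 11.18 and 11.38 in ABA, 10.19, 9.70 and 10.19 in DMTU, and 10.86, 10.21 and 9.32 in ABA+DMTU arrays. The groups with and without DMTU did not overlap, though ABA+DMTU array 1 came close to control array 2. The changes were -1.22 ± 0.32 (adjusted p = 0.0243) and -1.17 ± 0.32 (adjusted p = 0.0333). The call with DMTU alone was lost without control 1, DMTU 2 or DMTU 3 (adjusted p = 0.0502 to 0.0949), and that in cells with ABA without any ABA array or ABA+DMTU 2 or 3 (0.0632 to 0.0920).

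Elsewhere in the cluster the changes were small. The small subunit gene rps19 fell with DMTU alone by 0.65 (SE 0.17, adjusted p = 0.0242), a call lost without control 1, control 2, DMTU 2 or DMTU 3 (adjusted p = 0.0529 to 0.0976). Between rpl36 and rpl16 lies rpl14, whose change had the opposite sign without passing the test (0.33 ± 0.23 without ABA and 0.42 ± 0.23 with it). Without ABA+DMTU array 3 its change in cells with ABA was 0.69 and passed (adjusted p = 0.0446). In cells with ABA, rps19 changed by -0.42 ± 0.17 (adjusted p = 0.14), and by -0.59 without ABA+DMTU array 1 (adjusted p = 0.0359). The 95% interval for DMTU alone ran from -0.63 to 0.16 for rps3 and from -0.56 to 0.02 for rpl22.

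Outside this cluster, the 7 ribosomal genes besides rpl33 and rps18 gave no call with DMTU alone, at changes between -0.62 for rpl32 and 1.07 for rpl20. In cells with ABA, rpl32 passed without ABA+DMTU array 1 (-0.85, adjusted p = 0.0389, against -0.49 and 0.321 in all arrays). Also among them, rps4, for a protein whose bacterial counterpart binds early in small subunit assembly, changed by 0.55 ± 0.41 with DMTU alone (adjusted p = 0.411) and by 0.98 ± 0.41 in cells with ABA (adjusted p = 0.148). Control array 1 stood at 11.81 and the other control arrays at 10.35 and 10.19, so that the DMTU arrays, at 11.39, 11.23 and 11.36, lay within the control range. Without control array 1, both passed (adjusted p = 0.046 and 0.0341). Leaving out both control array 1 and ABA array 1 gave 1.06 with DMTU alone (adjusted p = 0.00706) and 1.31 in cells with ABA (adjusted p = 0.00222).

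The largest falls among the members were those of ycf4 and cemA, which lie side by side between psaI and petA. The product of ycf4 helps to assemble photosystem I. Its values were 9.36, 8.40 and 8.41 in control, 9.27, 9.07 and 9.18 in ABA, 6.10, 6.02 and 6.48 in DMTU, and 7.45, 7.64 and 5.92 in ABA+DMTU arrays. Arrays with DMTU lay below all arrays without it, ABA+DMTU arrays 1 and 2 standing between the DMTU and the control arrays. The change was -2.53 ± 0.40 without ABA (adjusted p = 0.00178) and -2.17 ± 0.40 with it (adjusted p = 0.00435). Without ABA+DMTU array 3 the latter was -1.63.

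The product of cemA is a protein of the inner plastid envelope linked to ion exchange and carbon uptake. It stood at 10.43, 9.44 and 9.66 in control, 10.56, 9.91 and 10.18 in ABA, 7.12, 6.95 and 7.42 in DMTU, and 8.82, 9.01 and 7.59 in ABA+DMTU arrays. The 4 groups stood in an order in which DMTU was lowest, ABA+DMTU next, and control and ABA overlapped at the top. The change was -2.68 ± 0.36 without ABA (adjusted p = 0.000752) and -1.75 ± 0.36 with it (adjusted p = 0.00807). Without ABA+DMTU array 3 the latter was -1.31. The neighbouring photosynthetic genes differed from each other: petA, for cytochrome f, changed by -1.76 ± 0.34 with DMTU alone (adjusted p = 0.00528), and psaI, for a small subunit of photosystem I, by -0.25 ± 0.50 (adjusted p = 0.778).

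The gene ycf3 rose with DMTU alone. Its product is another assembly factor of photosystem I. It stood at 8.56, 7.66 and 7.11 in control, 8.36, 7.39 and 8.43 in ABA, 9.17, 9.05 and 9.26 in DMTU, and 10.06, 9.51 and 8.65 in ABA+DMTU arrays. All arrays with DMTU lay above all arrays without it. The change was 1.38 ± 0.41 without ABA (adjusted p = 0.0408) and 1.35 ± 0.41 with it (adjusted p = 0.0518). The first call was lost without control 2 or 3, ABA 3, any DMTU array, or ABA+DMTU 2 (adjusted p = 0.0514 to 0.130), and the second was gained without control 1, control 3 or ABA+DMTU 3 (0.0210 to 0.0432). Next to ycf3 lies psaA, for a core subunit of photosystem I, which had the largest fall of all measured plastid genes with DMTU alone, -4.15 ± 0.35 (adjusted p = 5.48e-05).

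**Figure D4:**
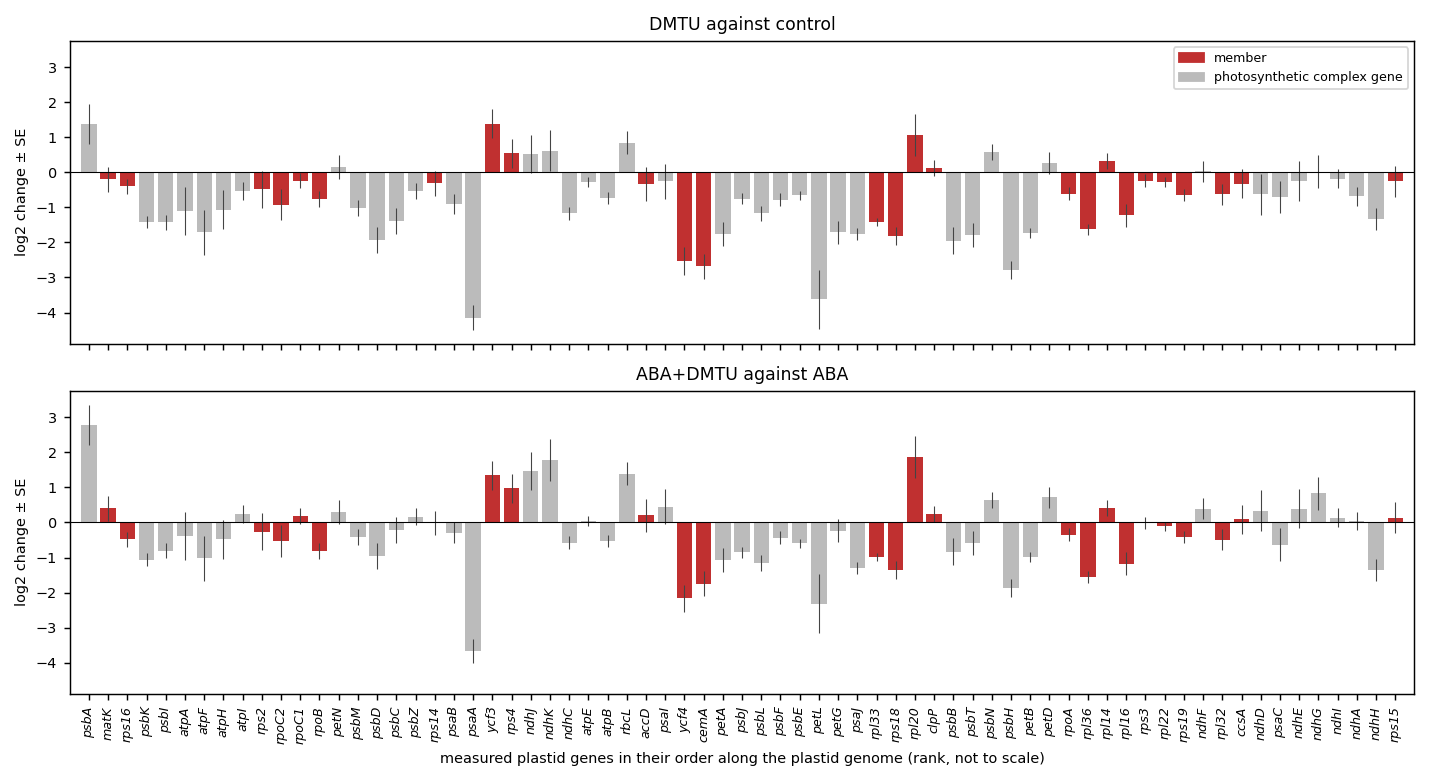
Bars give the log2 change with DMTU of the 69 plastid genes with a probe set of their own, in their order along the plastid genome (ranks, not to scale; red, the 26 members; grey, 43 photosynthetic genes; error bars, SE from the fit over 12 arrays). Neighbours include genes that fell together (psaJ, rpl33 and rps18; ycf4, cemA and petA) and genes with opposite signs (psaA and ycf3; rpl36 and rpl14).

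Of the remaining genes, accD, clpP, matK and ccsA gave no call with DMTU in either comparison. The gene accD, for a subunit of the acetyl-CoA carboxylase of fatty acid synthesis, stood at 8.58, 7.10 and 6.97 in control, 9.01, 7.87 and 8.11 in ABA, 7.17, 7.05 and 7.43 in DMTU, and 8.95, 9.02 and 7.62 in ABA+DMTU arrays. Control and DMTU arrays overlapped (change -0.33 ± 0.47), as did ABA and ABA+DMTU arrays (0.20 ± 0.47). Without control array 1, the change with DMTU alone turned to 0.18.

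The gene clpP, for the proteolytic subunit of the plastid Clp protease, stood at 11.85, 11.05 and 10.72 in control, 11.58, 11.28 and 11.47 in ABA, 11.34, 11.30 and 11.34 in DMTU, and 11.79, 11.82 and 11.44 in ABA+DMTU arrays. All groups lay within the range of the controls, and the 95% interval of the change with DMTU alone ran from -0.39 to 0.63.

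For matK, a maturase that takes part in splicing plastid introns, the values were 11.32, 10.18 and 10.10 in control, 10.84, 9.85 and 9.88 in ABA, 10.50, 10.25 and 10.25 in DMTU, and 10.90, 10.82 and 10.05 in ABA+DMTU arrays. Array 1 was the highest in all 4 groups. The interval of the change with DMTU alone was -0.99 to 0.59. The change itself was -0.20, and 0.19 without control array 1.

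The gene ccsA, needed to attach haem to c-type cytochromes of the photosynthetic membrane, stood at 11.10, 9.78 and 9.39 in control, 10.70, 9.51 and 9.76 in ABA, 9.77, 9.75 and 9.79 in DMTU, and 10.46, 10.19 and 9.60 in ABA+DMTU arrays. The DMTU arrays agreed to within 0.1 log2 unit while the controls spanned more than 1. The interval of the change with DMTU alone was -1.23 to 0.59. The change itself was -0.32, and 0.18 without control array 1.

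The 43 plastid genes of the photosynthetic complexes also moved with DMTU: with DMTU alone 21 fell and none rose, with a median change of -0.78. Of all probe sets 8.26% fell and 9.39% rose there. In cells with ABA 10 of the 43 fell and 2 rose, with a median of -0.42, where 6.86% of all probe sets fell and 7.36% rose. Whether the members differed from these genes was not tested. After subtraction of the median of all 69 plastid probe sets in each array, the mean difference between DMTU and control arrays was -1.46 for cemA, -1.31 for ycf4, -0.61 for rps18, -0.41 for rpl36, -0.20 for rpl33 and -0.01 for rpl16. On this scale ycf3 differed by 2.60, rpl20 by 2.29, rps4 by 1.76 and rpl14 by 1.55. The other genes called as falling turned in sign on this scale, at 0.61 for rpoA, 0.56 for rps19 and 0.46 for rpoB. Of the 9 that fell, 5 thus fell further than the median plastid level did, rpl16 moved with it, and these 3 fell less than it did. That level, 9.91, 9.47 and 9.23 in control and 8.37, 8.13 and 8.46 in DMTU arrays, is not the change of a median gene. The median change was smaller, -0.78 for the 43 photosynthetic genes and -0.36 for the members. Across the 26 members, the change under DMTU alone had a correlation of r = 0.20 with log2 gene length, a description across genes.

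ABA alone was compared with control to ask which of these genes the hormone regulates. Of the 26 members 1 passed the test, rpl33, which fell by 0.42 (SE 0.11, adjusted p = 0.013). Of all probe sets 15.5% were called higher and 19.8% lower. The member changes ran from -0.65 for rps18 to 0.78 for accD with a median of 0.05, against 0.01 over all probe sets. At an unadjusted p under 0.05 the count was 2.

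For rpl33 the ABA arrays lay below all control arrays. The call was lost when the arrays were centred on their medians, which gave -0.27 (adjusted p = 0.0752), and without both control 1 and ABA 1, which gave -0.38 (adjusted p = 0.0593). Centring shifted the median over all probe sets by 0.15 in this comparison. The ABA arrays of rps18 also lay wholly below the controls, with a change of -0.65 ± 0.25 (adjusted p = 0.0708). With the replicate number as a block rps18 passed (adjusted p = 0.0333), so that 2 members were called, and it also passed without DMTU 1 (0.0418) or ABA+DMTU 1 (0.0268) and in a fit on the compared groups only (0.00949). The third gene of that row, psaJ, changed by -0.53 ± 0.17 (adjusted p = 0.0312).

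Intervals show what the other members could hide. The 95% interval of the ABA effect ran from -0.30 to 0.52 for rpoA, from -0.30 to 0.40 for rpl36 and from -0.43 to 0.14 for rpl22. It was far wider where control array 1 stood apart, from -1.15 to 1.19 for rps2 and from -1.0 to 0.99 for rpoC2. Without control array 1, clpP (0.56, adjusted p = 0.012) and accD (1.29, adjusted p = 0.0279) were called higher. The ABA arrays of rps14, a small subunit gene next to psaB, stood at 5.73, 5.44 and 5.81 and the controls at 5.37, 4.93 and 4.60. These groups did not overlap, and the change was 0.69 ± 0.35 (adjusted p = 0.165), which passed without ABA+DMTU 3 (adjusted p = 0.0287). Of all 22746 probe sets, 4708 lay wholly higher with ABA alone and 5394 wholly lower, against 1 and 3 members.

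In the presence of DMTU, the effect of ABA was read from ABA+DMTU against DMTU arrays. There 3 members rose and none fell, where 18.8% of all probe sets rose and 20.6% fell. They were cemA (1.31 ± 0.36, adjusted p = 0.0126), accD (1.31 ± 0.47, adjusted p = 0.047) and rps14 (0.99 ± 0.35, adjusted p = 0.0438). The change was positive for 23 of 26 members and 12383 of 22746 probe sets, with a median of 0.29 against 0.03 over all probe sets. ABA+DMTU array 3 was low for every member, so that these signs are not separate observations. For rps14 the ABA+DMTU arrays stood at 5.88, 6.36 and 4.68 and the DMTU arrays at 4.72, 4.41 and 4.84, so that array 3 of the former lay within the range of the latter. For cemA and accD the groups did not overlap. The ABA+DMTU arrays lay wholly above the DMTU arrays for 4 members, and for 5987 of all 22746 probe sets.

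These 3 calls turned on single arrays. The call for cemA was lost without ABA+DMTU 1 or 2 (adjusted p = 0.0507 to 0.0577). Those for rps14 (0.0542 to 0.176) and accD (0.0518 to 0.159) were lost without control 2, ABA 2, ABA 3, any DMTU array, ABA+DMTU 1 or ABA+DMTU 2. Without ABA+DMTU array 3, 7 members rose, among them rpoC1 (adjusted p = 0.00273), ycf4 (0.00304), rpl20 (0.00436) and rpoA (0.0204). Of the 43 photosynthetic plastid genes 16 rose in this comparison, 33 without that array, with a median change of 0.87 in all arrays. With all arrays, 18.8% of all probe sets rose.

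**Figure D5:**
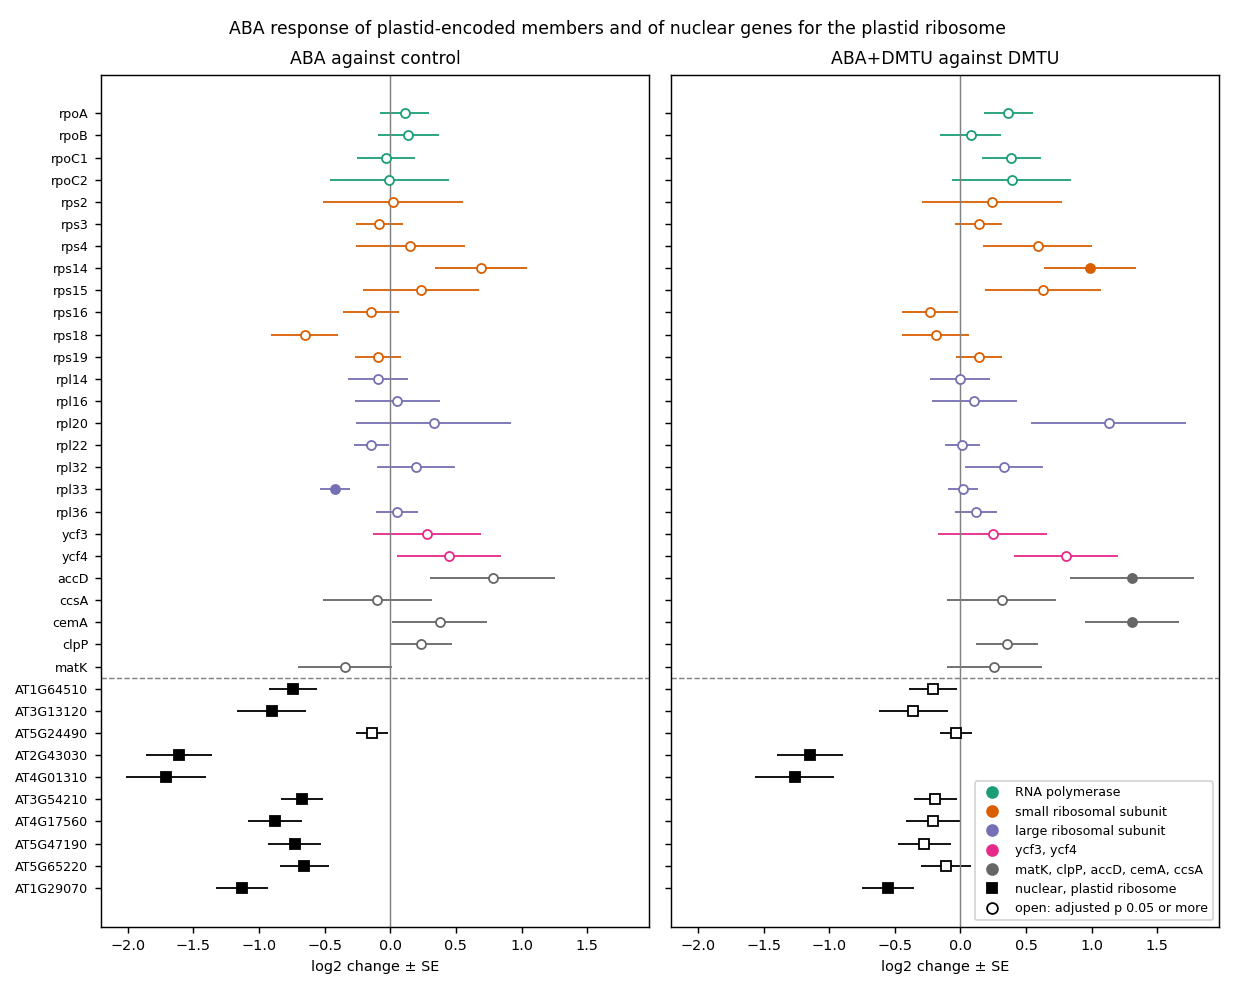
The log2 change with ABA is drawn for each member (circles, coloured by role) and for 10 nuclear genes of the plastid ribosome (squares), without DMTU on the left and with DMTU on the right, with SE from the fit over 12 arrays; open symbols did not pass the test. On the left 1 of 26 members and 9 of 10 nuclear genes are filled, and on the right 3 and 3.

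Nuclear genes of the plastid's gene expression were taken from lists by locus, of which 18 of 93 genes had a probe set named here. None of the 6 sigma factors, 13 polymerase-associated proteins or 5 nuclear carboxylase genes was among them. Of 40 listed nuclear genes for plastid ribosomal proteins 10 were measured, and 9 of these fell with ABA alone, with a median change of -0.81. Of all probe sets 19.8% fell there. The 15 plastid-encoded ribosomal genes had a median of 0.02 and 1 fall in the same comparison. The strongest calls were AT2G43030 (-1.61 ± 0.25, adjusted p = 0.000442), AT1G29070 (-1.13 ± 0.20, adjusted p = 0.000913) and AT4G01310 (-1.71 ± 0.30, adjusted p = 0.001). AT2G43030 stood at 10.20, 10.67 and 10.78 in control and at 8.31, 9.36 and 9.15 in ABA arrays, without overlap. AT5G24490 did not pass (-0.14 ± 0.13). It stood at 3.69 to 4.30 in all arrays, near their lower quartiles of 3.84 to 3.98, so that a fall could hardly show. ABA array 1 was the lowest of its group for all 10 genes, as for AT4G01310 (6.79, against 8.22 and 7.85) and AT5G47190 (7.77, against 8.74 and 8.50). The same array was the highest of its group for 17 members, which widens the difference between the nuclear and the plastid-encoded genes. Leaving out 1 array gave between 6 and 9 falls, and the medians without ABA array 1 are not given here.

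In the presence of DMTU, 3 of the 10 nuclear ribosomal genes fell with ABA (AT2G43030, AT4G01310 and AT1G29070), where 20.6% of all probe sets fell. The median change of the 10 was -0.24. None of the 10 passed the test of the difference between the ABA effects with and without DMTU. With DMTU alone 2 fell, AT5G65220 (-0.87 ± 0.19, adjusted p = 0.00953) and AT1G29070 (-0.68 ± 0.20, adjusted p = 0.0372), where 8.26% of all probe sets fell. In ABA+DMTU against ABA arrays none passed.

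The other nuclear lists were thinly covered. The listed phage-type polymerase gene AT5G15700 fell with ABA (-0.68 ± 0.22, adjusted p = 0.0293), also in the presence of DMTU (-0.89 ± 0.22, adjusted p = 0.00675). It stood at 5.36, 6.25 and 6.37 in control and at 5.28, 5.30 and 5.34 in ABA arrays. Control array 1 thus lay near the ABA arrays, and the change without it is not given here. OTP81, an organelle transcript processing factor, fell with ABA (-1.59 ± 0.23, adjusted p = 0.000284), also in the presence of DMTU (-1.99 ± 0.23, adjusted p = 4.49e-05). Of 4 measured nuclear Clp genes, AT1G09130 rose with ABA (0.49 ± 0.11, adjusted p = 0.00543) and with DMTU (0.37 ± 0.11, adjusted p = 0.0483), and CLPP4 had a change of -0.06 ± 0.13 with ABA. Of 4 listed assembly partners of ycf3 and ccsA 2 were measured: AT1G22700 fell with ABA (-0.46 ± 0.14, adjusted p = 0.0217) and AT1G49380 fell with DMTU (-0.74 ± 0.18, adjusted p = 0.0175). Over all 18 genes, 12 fell and 1 rose with ABA alone, where 19.8% of all probe sets fell and 15.5% rose.

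The interaction, the ABA effect with DMTU minus that without it, was called for none of the 26 members (limma, adjusted p over all probe sets), where 2.80% of all probe sets were called. At an unadjusted p under 0.05 there was 1, rpl33 (0.44 ± 0.16, adjusted p = 0.208). The value for cemA was 0.93 ± 0.51 (adjusted p = 0.436), with a 95% interval wide enough to hold both no difference and one of over 1 log2 unit. The interaction was positive for 23 of 26 members and 11804 of 22746 probe sets, with a median of 0.27 against 0.01 over all probe sets. The members deviated together by array, so that their signs are not separate observations.

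Over all 4 groups together, limma's moderated F test called 11 of 26 members, where 53.1% of all probe sets were called. These were the 10 called with DMTU alone and rpl20 (adjusted p = 0.0303). The smallest adjusted p belonged to rpl33 (2.3e-06) and rpl36 (4.19e-06). Members with no call in any comparison of groups or in this test were rpoC1, rpoC2, rps2, rps3, rps4, rps15, rps16, rpl14, rpl22, rpl32, clpP, matK and ccsA.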

How the data were processed

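RNA of 12 samples was labelled with a 3' labelling kit and hybridised to single-colour Affymetrix arrays, per the labels' protocols. The values used are the log2 probe set values deposited by the authors. RMA and limma are named without version, per the submitters' processing notes. Whether all arrays were normalized together is not given in the sources used here. Kits of this kind prime from poly(A) tails, of which plastid transcripts carry little, and no other measurement of these transcripts was used. Precision is limited by the number of arrays. It is not stated that replicates are separate cultures, and the p-values cover only the spread seen between these arrays, possibly a technical one.

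Of 22810 probe sets, 64 control probe sets were left out. The annotation gave 1 gene for 13513 probe sets and several for 503. Names and the order of plastid genes came from RefSeq's gene table (TAIR10.1 assembly); no genome build is named for the files, and no coordinates or sequences are given. Each of 22746 probe sets was fitted in R 4.3.3 with limma 3.58.1 (lmFit and eBayes, a mean per group, 8 residual degrees of freedom, two-sided). A call is a Benjamini-Hochberg adjusted p under 0.05 over all of them. Errors of a change are standard errors, and of a level standard deviations. The fit was tested on simulated data. Tables and plots used Python 3.11.15, pandas 2.3.3 and matplotlib 3.10.9.

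The members, gene lists and tests were chosen with earlier results of these data known. Values in every array are given for the polymerase genes, matK, clpP, accD, cemA, ccsA, ycf3 and ycf4, and for ribosomal genes called at 2-fold or more; those of rpl20, rps4 and rps14 were added after their values were seen. Up to 3 genes of each nuclear list, those of smallest adjusted p, are named, and CLPP4, AT5G24490 and AT5G65220 were added after their values were seen. The neighbouring photosynthetic genes were named for their position. Same-numbered control and ABA arrays deviated together from their group means (r = 0.52, 0.42 and 0.39 for numbers 1, 2 and 3). Numbers 2 and 3 correlated as much with each other across these groups (r = 0.44 and 0.41), which marks number 1 as distinct and leaves 2 and 3 alike. No label says what a number marks, and no other comparison met the rule of r over 0.1 at every number. Alternatives were the replicate number as a block, other scalings, a filter on dim probe sets (mean of 5 or more), array quality weights, a trended robust prior, a fit on the compared groups only, and leaving out arrays. A planned search for promoter motifs was not run.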

Additional observations from a re-analysis of the deposited data

How the results depend on the processing

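No call for a member reversed. Of 2574 member values under the alternatives, 2442 kept their side of the threshold, 74 lost a call and 58 gained one. Values that were not called could turn in sign, as ccsA did with ABA alone. The falls of cemA, ycf4, rpl36, rps18 and rpl33 with DMTU were called under every alternative run, both without and with ABA. The counts of called members varied more, and the cause was not tested. For ABA against control the count of 1 became 2 with the replicate block, 0 with arrays centred on their medians, 9 with array quality weights and 2 in a fit on the compared groups only, and leaving out 1 array gave 1 to 3. For ABA+DMTU against DMTU the count of 3 became 5 without control 1 and ABA 1 together, and leaving out 1 array gave 0 (ABA+DMTU 1 or 2) to 7 (ABA+DMTU 3). For ABA+DMTU against ABA the count of 7 became 13 with quality weights and ranged from 5 to 10 without 1 array. For DMTU against control the count of 10 ranged from 5 (DMTU 2 or 3) to 10 without 1 array, and became 11 with the replicate block and 15 with quality weights. For the F test the count of 11 became 18 with quality weights and ranged from 9 to 15 without 1 array. In a fit on the compared groups only, calls were lost for rpl16 (adjusted p = 0.0793) and rpoB (0.0871) in ABA+DMTU against ABA and for rps14 (0.0673) in ABA+DMTU against DMTU, and accD lost its call there with a trended robust prior (0.0515). Without control 1 and ABA 1 together, rpl16 (0.0619), rps19 (0.0588) and rpoB (0.104) lost theirs with DMTU alone, and rpoB in ABA+DMTU against ABA (0.0542). The interaction gave 0 under every alternative.

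With quality weights the calls over all probe sets went from 8014 to 12891 with ABA alone, from 3234 to 7542 for ABA+DMTU against ABA, and from 12083 to 16210 for the F test. Centring shifted the median over all probe sets by 0.15 with ABA alone and by 0.17 with ABA in the presence of DMTU, and turned the split of higher and lower calls from 3518 and 4496 to 5036 and 3522, and from 4274 and 4682 to 6753 and 3765. The replicate block called 2 members with ABA alone, 3 with ABA in the presence of DMTU, 11 with DMTU alone and 10 with DMTU in cells with ABA. Where the samples share only a number, its ycf3, rpl20 and rps4 calls in ABA+DMTU against ABA are no more than a hint. None of these was called in the main fit. In that comparison ycf3 also passed with quantile normalization (adjusted p = 0.0492), the dim filter (0.0385) and quality weights (0.0466). There rpl20 passed with the dim filter (0.0423) and quality weights (0.0210), and rps4 with quality weights (0.00136). Under alternatives chosen after seeing the data, the falls of nuclear genes of the plastid ribosome with ABA alone stayed between 6 and 9 of 10 without 1 array. The photosynthetic plastid genes called for ABA+DMTU against DMTU ranged from 8 to 33.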
